A study of Homo sapiens with 12 samples.

Results

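The cabazitaxel-resistant line Du145-CbzR was compared with the docetaxel-resistant line Du145-DtxR across the transcriptome, to show where 2 lines selected from the same cells with related drugs differ. The comparison rests on 4 of the 12 libraries of the series, 2 of each line, chosen by their labels. Du145 is an established line of human prostate cancer cells. Both lines descend from it and were selected with 72 h exposures to cabazitaxel or to docetaxel, in steps that rose from 1 nM to 125 nM, and neither carried a transgene or received siRNA. The parental cells, Du145-P, were passaged alongside and give the level beside both lines (2 libraries), and 3 libraries of Du145-DtxR with a control siRNA, harvested 48 h after it was removed, give a separate look at Du145-DtxR. Each resistant line is 1 derived line, and the study calls its samples biological replicates, while the labels do not say whether the 2 libraries of a line are separate cultures. The p-values measure the spread between libraries, and an effect of the drug cannot be told apart from the history of a single line.

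Docetaxel and cabazitaxel are taxanes, drugs that bind beta-tubulin inside microtubules, stop these from shortening and hold dividing cells in mitosis. Cells can withstand them by pumping the drug out, above all with ABCB1 (P-glycoprotein), by changes in tubulins and microtubule-binding proteins, and by blunting the death that follows a failed mitosis. Cabazitaxel was developed as a poorer substrate of ABCB1 than docetaxel.

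The 6 libraries of the 3 lines held between 27512422 and 30593573 estimated counts, and mitochondrial transcripts took 12.1% and 12.7% of them in Du145-CbzR, 8.91% and 9.48% in Du145-DtxR, with 14.3% and 15.4% in Du145-P. The 2 libraries of each line differed by more than counting noise (chi-square per degree of freedom of 3.14 to 5.71), so each was kept as a library of its own. The label was checked against markers, and the epithelial ones were mixed. Of 6 such markers, KRT7, KRT8 and KRT18 were abundant in both lines. Against these, CDH1 was low in both lines, and KRT19 was far below its Du145-DtxR level in Du145-CbzR, as given below. The 6 summed to 973 and 1018 CPM in Du145-CbzR and 951 and 908 in Du145-DtxR. KLK2, KLK3 and TMPRSS2 of luminal prostate cells were at or near 0. Of 9 luminal markers 4 had enough counts for a test, and the 9 summed to 93.3 and 92.7 CPM in Du145-CbzR and 173 and 179 in Du145-DtxR. The part of this list in the results was not tested. Of 8 neuroendocrine markers 2 had enough counts for a test, and 1 was higher in Du145-CbzR at an adjusted p under 0.05. The 8 summed to 52.8 and 54.8 CPM in Du145-CbzR and 27.2 and 25.8 in Du145-DtxR, with 43.5 and 45.8 in Du145-P. Of 6 endothelial markers 0 had enough counts for a test, and of 7 leukocyte markers 1 did, CD68, which many tumor cells express. In bulk RNA such as this, fewer cells of a kind and less RNA per cell cannot be told apart. Levels are CPM, counts relative to each library's total, after TMM scaling, which evens out differences in library composition. Differences are log2 fold changes of Du145-CbzR against Du145-DtxR from edgeR's quasi-likelihood test, with a standard error (SE) and Benjamini-Hochberg adjusted p-values over all genes tested. The SE is too small for genes with few counts. Genes were named by the rule given under the processing, apart from SLFN5, SLFN12, SLFN13, PEG10, RUNDC3B, SLC25A40, DBF4, PSMB9, SAMD9, ITGB4, CDH1, LEF1, IGFBP5, IL6 and the other genes whose promoters are shown, which were chosen after their values were seen.

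Both lines differed over much of the transcriptome. Of 18218 genes tested, 2219 (12.2%) were higher and 1587 (8.71%) lower in Du145-CbzR at an adjusted p under 0.05 and a log2 fold change past 1, and such genes are called DEGs below. These shares of 12.2% and 8.71% are the background for every count of DEGs among list members below. With no limit on the fold change, 5690 genes (31.2%) were higher and 5791 (31.8%) lower, and the median over all genes was 0.01. The shares of 31.2% and 31.8% are the background for every count by an adjusted p alone below. The differences were often large, with 284 genes higher and 185 lower by more than 4 on the log2 scale. In Du145-CbzR the DEGs with the largest excess in CPM besides ABCB1 were FTH1 (the ferritin heavy chain, which stores iron), TM4SF1 (a tetraspanin-like surface protein), PLOD2 (a lysyl hydroxylase that prepares collagen for cross-linking), SYNE1 (a giant protein that ties the nucleus to the cytoskeleton), HEATR5A, FASN (fatty acid synthase), EDIL3, SEMA3C and TIMP2. TM4SF1 stood at 1256 and 1261 CPM in Du145-CbzR against 208.0 and 208.2 in Du145-DtxR, with 382 and 377 in Du145-P. In Du145-DtxR they were HSPA5, CALR, CANX, HYOU1, PDIA3 and PDIA4 of the endoplasmic reticulum, SSR3 (a subunit of the translocon-associated complex), AHNAK (a scaffold protein under the membrane), ANXA1 (the calcium- and phospholipid-binding annexin A1) and NAMPT (the rate-limiting enzyme of NAD salvage). ANXA1 stood at 183 and 171 CPM in Du145-CbzR, 1097 and 1154 in Du145-DtxR, with 305 and 296 in Du145-P, so that the lines lay on opposite sides of the parental level.

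**Figure D1:**
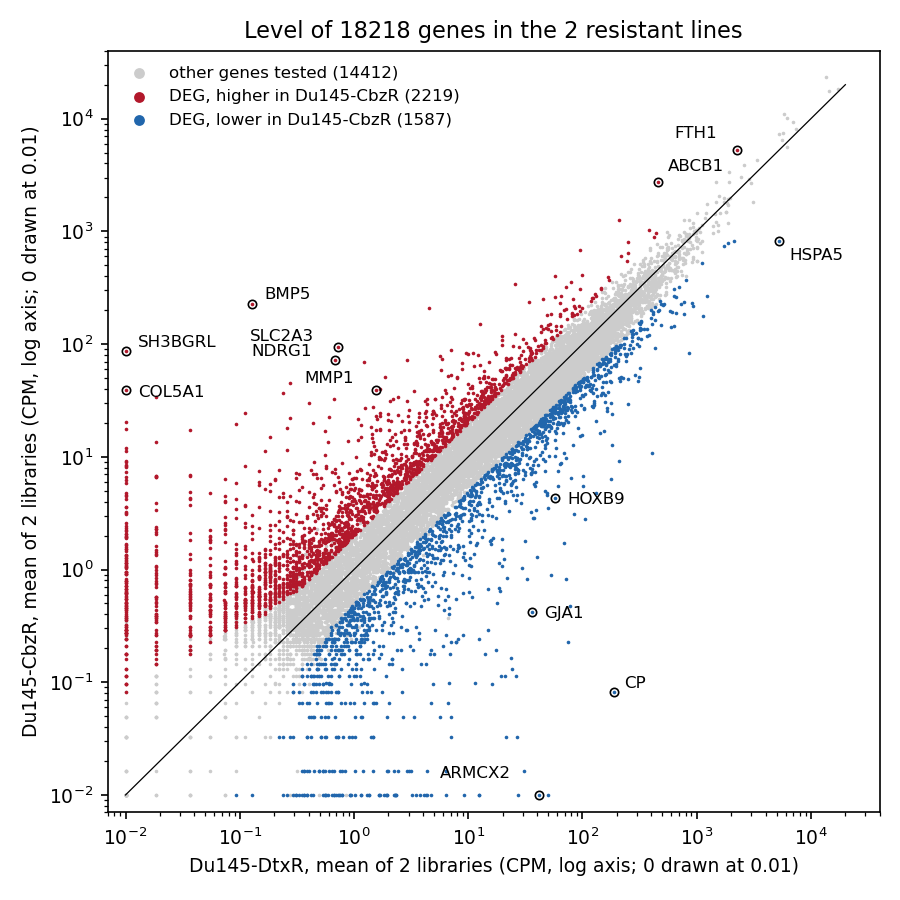
Mean level of each of 18218 tested genes in Du145-DtxR (horizontal) and Du145-CbzR (vertical), 2 libraries each, in CPM on log axes, with a level of 0 drawn at 0.01. Red points are the 2219 DEGs higher in Du145-CbzR, blue points the 1587 lower, and the line marks equal levels; SH3BGRL and ARMCX2 sit at the edges because 1 line had no count of them.

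Some genes were on in one line and had not 1 count in the other. Among genes of at least 5 CPM in the other line, 15 had 0 counts in both Du145-DtxR libraries and 7 had 0 in both Du145-CbzR libraries. At a limit of 1 CPM the numbers were 57 and 32. SH3BGRL, a small thioredoxin-fold protein gene (ENSG00000131171, chromosome X, GRCh38 81202102 to 81298547), had 86.6 and 87.3 CPM in Du145-CbzR, 0 and 0 in Du145-DtxR, with 54.1 and 51.2 in Du145-P. It was at least 1573-fold higher in Du145-CbzR, against a floor of 3 counts over the 2 libraries of a line, which covers counting error only (adjusted p = 4.22e-12). COL5A1, a chain of the fibril-forming collagen V, had 37.5 and 39.9 CPM against 0 and 0 (at least 701-fold), with 9.13 and 10.3 in Du145-P. DAPK1, a calcium-regulated kinase of cell death, had 19.45 and 21.6 CPM against 0 and 0 (at least 371-fold), with 26.6 and 26.9 in Du145-P. The sphingosine-1-phosphate receptor gene S1PR3, the nudix hydrolase gene NUDT7, the GABA transporter gene SLC6A11 and the vesicle fusion gene TSNARE1 had a like pattern, with 5.49 to 14.5 CPM in Du145-P and 0 in Du145-DtxR. In SLFN14 and in the lncRNA genes ENSG00000203620 and ENSG00000286432, by contrast, Du145-P was at or under 0.552 CPM, and the high level was that of Du145-CbzR. BMP5, a secreted ligand of the BMP family, was near this class, with 232 and 225 CPM in Du145-CbzR, 0.147 and 0.111 in Du145-DtxR, with 21.9 and 18.7 in Du145-P (log2 fold change 10.74, SE 0.15, adjusted p = 6.41e-13).

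In the other direction, ARMCX2, an armadillo-repeat gene on the X chromosome, had 0 and 0 CPM against 41.3 and 42.7 in Du145-DtxR, with 3.41 and 2.99 in Du145-P. Against the same floor this is at least 863-fold lower. The zinc finger gene ZNF518B and the basement membrane gene TINAGL1 also had 0 counts in Du145-CbzR, and here Du145-P was close to or above Du145-DtxR: ZNF518B had 27.3 and 27.5 CPM in Du145-DtxR, with 22.5 and 20.3 in Du145-P, and TINAGL1 had 12.1 and 12.8 against 20.3 and 19.6. ACP7, C4orf19 and the ciliary gene EVC2 had 0 counts in Du145-CbzR as well. CP, the ferroxidase ceruloplasmin that carries copper in plasma, had 5 counts over both Du145-CbzR libraries and 183 and 191 CPM in Du145-DtxR, with 0.13 and 0.166 in Du145-P. BRDT, a bromodomain gene that is normally active in the testis, had 2 counts in Du145-CbzR against 20.7 and 22.4 CPM in Du145-DtxR, which gives -9.37 on the log2 scale (95% interval of counting error -12.42 to -7.52).

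The control siRNA libraries of Du145-DtxR, which were sequenced and quantified apart, bore on these genes without having been used to choose them. Of the 15 genes at 0 in Du145-DtxR, 7 had 0 counts in all 3 of these libraries and 12 had at most 3 counts over the 3. The exceptions were SLFN14 (0.30, 0.179 and 0.416 CPM), TSNARE1 (0.06, 0.0596 and 0.178) and LINC01670 (0.30, 2.44 and 0.297), whose 2 parental libraries were also far apart, at 7.18 and 0.597. All 7 genes at 0 in Du145-CbzR were present in the 3 libraries, ARMCX2 at 39.2, 41.1 and 40.2 CPM. The 2 tables were processed apart, so these levels are not compared as folds.

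**Figure D2:**
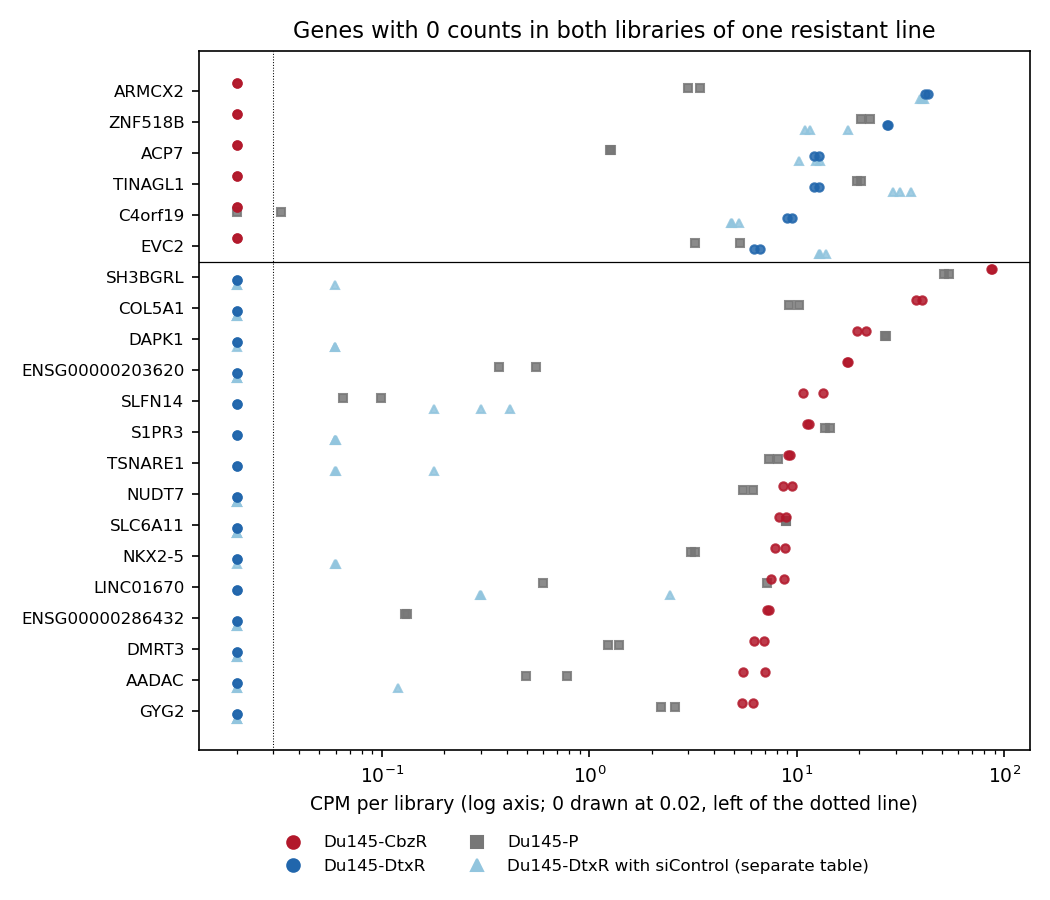
CPM per library on a log axis, with 0 drawn at 0.02, for 21 genes that had 0 counts in both libraries of one resistant line and at least 5 CPM in the other. The 6 genes of the upper block were at 0 in Du145-CbzR and present in all 3 control siRNA libraries of Du145-DtxR, and the 15 of the lower block were at 0 in Du145-DtxR.

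Schlafen genes, which lie together on chromosome 17, split between the lines. Schlafens are interferon-inducible proteins, several of which bind or cleave tRNA, and SLFN11 sensitizes cells to DNA-damaging drugs. SLFN11 had 30.0 and 31.1 CPM in Du145-DtxR, with 41.3 and 39.4 in Du145-P, and a single count in all in Du145-CbzR, which gives -10.88 on the log2 scale (95% interval of counting error -16.18 to -8.40). SLFN13, SLFN5 and SLFN12 were lower too, by log2 fold changes of -4.13 (SE 0.11), -2.87 (SE 0.07) and -1.67 (SE 0.15). SLFN14 went the other way, with 13.4 and 10.7 CPM in Du145-CbzR, 0 in both Du145-DtxR libraries and 0.065 and 0.0995 in Du145-P.

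ABCB1 (ENSG00000085563, chromosome 7, GRCh38 87503017 to 87713323, minus strand), the drug efflux pump that both taxanes can engage, was on in both resistant lines and higher in Du145-CbzR. It had 2809 and 2722 CPM in Du145-CbzR, 454.5 and 454.2 in Du145-DtxR, with 0.227 and 0.464 in Du145-P. The log2 fold change between the resistant lines was 2.61 (SE 0.05, adjusted p = 7.42e-12), a 6.09-fold difference. Of 28 tested ABC transporters, 8 were DEGs higher and 3 lower in Du145-CbzR (12.2% and 8.71% over all genes), with a median of 0.10. ABCC2, which exports conjugated drugs and bilirubin, stood at 157 and 142 CPM against 11.8 and 13.4, with 76.7 and 70.2 in Du145-P (log2 fold change 3.57, SE 0.08, adjusted p = 1.41e-11). ABCC3, its relative of the basolateral membrane, stood at 154 and 150 CPM against 51.9 and 51.2, with 126 and 133 in Du145-P. ABCB4 (a phospholipid transporter next to ABCB1), the cholesterol exporter ABCG1, the surfactant lipid transporter ABCA3 and the lysosomal ABCB9 were also higher, ABCB9 with a log2 fold change of 1.07 (0.98 and 0.91, and no DEG, without Du145-CbzR replicate 2 and without Du145-DtxR replicate 2). ABCG2, a further pump of many drugs, was lower (1.27 and 1.95 CPM against 4.89 and 6.24). ABCF2 and the mitochondrial ABCB8 were lower too, and their genes lie beyond ABCB1 on chromosome 7. Among the rest, ABCA1, ABCA5 and ABCD4 were higher and ABCC1, ABCC10, ABCD3 and ABCE1 lower by an adjusted p alone, within 0.84 on the log2 scale. ABCA2, ABCA7, ABCB6, ABCB10, ABCC4, ABCC5, ABCC6, ABCF1 and ABCF3 lay between -0.13 and 0.26 and did not pass.

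Genes next to ABCB1 fell on both sides of it. From ELAPOR2, 0.65 Mb before the start of ABCB1, to ABCB1 itself, 9 of 10 tested genes were DEGs higher in Du145-CbzR, with a median of 2.56. ELAPOR2, of a family linked to endosomes, lysosomes and autophagy, had 345 and 332 CPM in Du145-CbzR, 26.2 and 25.5 in Du145-DtxR, with 46.0 and 43.5 in Du145-P (log2 fold change 3.71, SE 0.06, adjusted p = 6.41e-13). CROT, which makes acylcarnitines in peroxisomes, had 64.6 and 64.0 CPM against 11.6 and 10.97 in Du145-DtxR, with 10.8 and 10.9 in Du145-P (log2 fold change 2.51). DMTF1 and TMEM243 lay at 2.17 and 2.36, and Du145-DtxR was close to the parental level for both. The exception was RUNDC3B, whose start lies 0.09 Mb inside ABCB1 on the other strand, with 0.455 and 0.65 CPM against 4.41 and 4.40 (log2 fold change -2.99, SE 0.25). The sources used here do not state that counting used strand, so reads of overlapping genes may not be told apart. Beyond ABCB1 the sign turned: of 445 tested genes from there to the end of the long arm, 183 (41.1%) were DEGs lower and 16 (3.60%) higher, with a median of -0.89. SLC25A40 and DBF4, both 0.16 Mb beyond the start, already lay at -0.67 and -0.96. These intervals were drawn after the values were seen and neighbouring genes are not independent, so the counts carry no test. The level against Du145-P shows which line moved: beyond ABCB1 the median was -1.02 in Du145-CbzR and -0.07 in Du145-DtxR, and between ELAPOR2 and ABCB1 it was 2.83 and 0.10. The study measured ABCB1 gene copies by qPCR and reported amplification in Du145-CbzR alone of its resistant lines. Its discussion also lists ABCB4, CROT and TMEM243 as upregulated amplicon genes of Du145-CbzR, and RUNDC3B as one of Du145-DtxR. Copy number was not tested here.

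**Figure D3:**
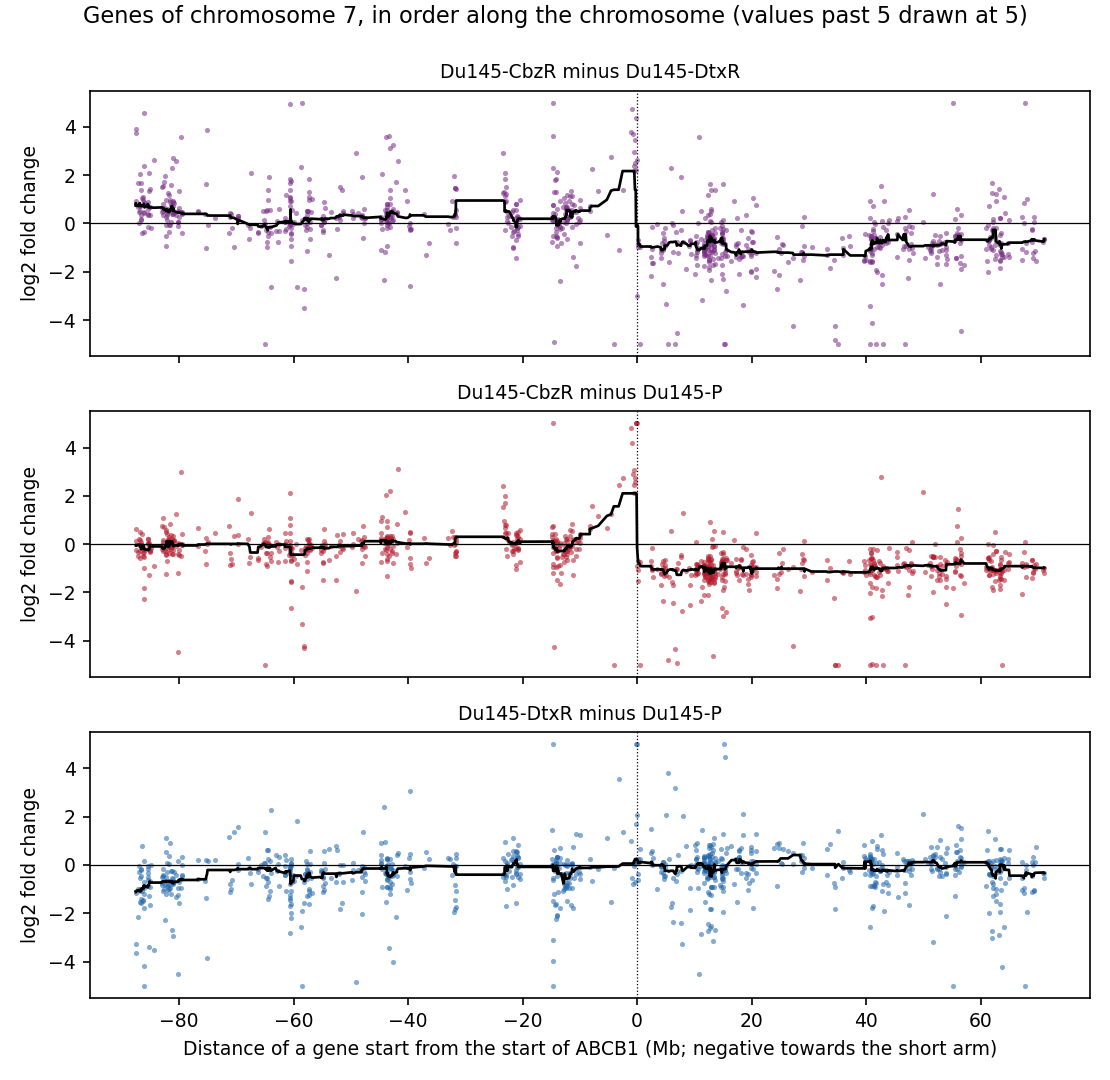
Log2 fold change of each tested gene of chromosome 7, by the distance in Mb of its start from that of ABCB1, for Du145-CbzR against Du145-DtxR, Du145-CbzR against Du145-P and Du145-DtxR against Du145-P. Points are genes, values past 5 are drawn at 5, and the black line is a running median over 25 genes; in the upper panels it drops at ABCB1, and beyond it the 445 genes have a median of -0.89 between the resistant lines.

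Several genes with wide differences lie in this stretch. NAMPT had 84.3 and 81.4 CPM in Du145-CbzR, 891 and 829 in Du145-DtxR, with 211 and 189 in Du145-P (log2 fold change -3.37, SE 0.07, adjusted p = 4.76e-12). CDK6, the G1 cyclin-dependent kinase, had 4.35 and 5.26 CPM against 47.1 and 51.1, with 11.6 and 11.9 in Du145-P. The receptor kinase MET had 62.4 and 61.7 CPM against 170 and 184. The imprinted gene PEG10 had 9.06 and 9.20 CPM against 202 and 218, with 279 and 266 in Du145-P. CDK6 and NAMPT thus exceeded the median of the stretch in part because Du145-DtxR stood above Du145-P, whereas PEG10 was low in Du145-CbzR alone.

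Other chromosomes held blocks of genes with one sign as well. Over 10 Mb windows with at least 20 tested genes, the highest median besides that of chromosome 7 from 80 to 90 Mb (2.17) was 1.02 on chromosome 14 from 20 to 30 Mb, where 55 of 112 genes were DEGs higher and 1 lower, MMP14. There the medians against Du145-P were -1.02 in Du145-DtxR and 0.08 in Du145-CbzR. The lowest median, -1.65, was on chromosome 6 from 160 to 170 Mb, where 18 of 30 genes were DEGs lower, with medians against Du145-P of 0.30 in Du145-DtxR and -1.20 in Du145-CbzR. Over whole chromosomes the medians ran from -0.41 on chromosome 9 and -0.39 on chromosome 21 to 0.41 on chromosome 14. With windows of 5 Mb the highest median was 1.02, since the windows around ABCB1 then held fewer than 20 tested genes. Neighbouring genes are not independent, and these windows carry no test.

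Genes of protein folding in the endoplasmic reticulum (ER) were lower in Du145-CbzR throughout the list. When unfolded proteins build up in the ER, sensors in its membrane activate transcription factors, of which ATF6 and XBP1 raise chaperones through the ER stress response element (ERSE), made of CCAAT, 9 further bases and CCACG. The element was searched on both strands of the RefSeq promoters (GRCh38.p14, from 250 bases before to 50 after each gene's start). It was found in 22 of 27305 promoters (0.0806%) and in 6 of the 20 promoters matched to the list. The stretches are shown for those 6 members. Capitals mark the element, which reads in reverse complement in CALR, CRELD2 and the second site of HSP90B1.
HSPA5: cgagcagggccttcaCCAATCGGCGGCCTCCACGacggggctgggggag
CALR: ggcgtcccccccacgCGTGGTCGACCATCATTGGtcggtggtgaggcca
CANX: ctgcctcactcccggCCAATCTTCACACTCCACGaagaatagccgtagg
CRELD2: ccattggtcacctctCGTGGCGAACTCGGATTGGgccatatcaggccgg
FICD: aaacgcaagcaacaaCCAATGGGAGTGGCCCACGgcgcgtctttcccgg
HSP90B1: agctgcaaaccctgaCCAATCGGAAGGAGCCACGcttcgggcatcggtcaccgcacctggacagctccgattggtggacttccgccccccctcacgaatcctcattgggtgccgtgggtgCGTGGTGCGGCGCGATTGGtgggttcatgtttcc
The stretches lie at chr9:125241376-125241424 (minus strand) for HSPA5 and, on the plus strand, at chr19:12938369-12938417 for CALR, chr5:179698763-179698811 for CANX, chr22:49918539-49918587 for CRELD2, chr12:108515108-108515156 for FICD and chr12:103930201-103930354 for HSP90B1.

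All 22 members of the ER list were lower at an adjusted p under 0.05, 15 of them DEGs (background 8.71%), with a median of -1.34. HSPA5, the master chaperone BiP, had 817 and 828 CPM in Du145-CbzR, 5389 and 5157 in Du145-DtxR, with 749.7 and 719 in Du145-P, a 6.41-fold difference (SE of the log2 fold change 0.05, adjusted p = 4.21e-12). CALR and CANX, lectin chaperones of glycoproteins, had log2 fold changes of -1.35 and -1.20. HERPUD1, which recruits misfolded proteins for degradation, had 52.6 and 53.7 CPM against 297 and 280, with 41.6 and 43.4 in Du145-P. The co-chaperone DNAJC3, the nucleotide exchange factor HYOU1 and the disulfide isomerase PDIA4 differed by -2.07, -2.09 and -1.99. Of the 6 genes with the element, 5 were DEGs, from -2.68 in HSPA5 and -2.11 in CRELD2 to -1.35 in FICD and -1.20 in CANX, and HSP90B1, the exception, lay at -0.79. Their median was -1.35, against -1.34 over the list. The list's median against Du145-P was 1.44 in Du145-DtxR and 0.11 in Du145-CbzR. SSR3, which is outside the list and works where proteins enter the ER, had 267 and 263 CPM against 1237 and 1246.

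The amino acid response under ATF4 was lower as well. ATF4 is translated when initiation factor eIF2 is phosphorylated and raises amino acid synthesis, transport and tRNA charging, in part through the composite site TGATGCAA. Of 30 listed targets 16 were DEGs lower and 0 were higher in the edgeR fit, also at an unadjusted p under 0.05 or with DESeq2, with a median of -1.04. Against Du145-P the list's median was 0.75 in Du145-DtxR and -0.22 in Du145-CbzR. DDIT3, the stress factor CHOP, had 11.9 and 12.2 CPM in Du145-CbzR against 62.2 and 56.2 in Du145-DtxR, with 7.47 and 8.56 in Du145-P. DDIT4, an inhibitor of mTORC1, PSAT1 of serine synthesis and the glycoprotein STC2 differed by -2.04, -1.69 and -1.43, and asparagine synthetase (ASNS), whose gene lies beyond ABCB1 on chromosome 7, by -2.11. Of 20 cytosolic aminoacyl-tRNA synthetases, which load amino acids onto tRNA, 17 were lower by an adjusted p alone and 1 higher (31.8% and 31.2% over all genes). DEGs among them were 3, all lower: IARS1 (194 and 186 CPM against 658 and 656), WARS1 and CARS1. The median of the synthetases against Du145-P was 0.73 in Du145-DtxR and 0.12 in Du145-CbzR. TGATGCAA stood in 252 of 27305 promoters (0.923%), in 1 of 24 matched to the ATF4 list (CHAC1) and in 6 of 16 matched to the synthetases, and the sites are shown, in capitals, for those 7. They read on the plus strand of the gene in NARS1 and in reverse complement in the others.
CHAC1: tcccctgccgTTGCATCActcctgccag
IARS1: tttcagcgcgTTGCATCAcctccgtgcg
CARS1: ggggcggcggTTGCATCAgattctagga
TARS1: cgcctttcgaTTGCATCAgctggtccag
NARS1: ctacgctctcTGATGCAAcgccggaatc
AARS1: tttctcgcagTTGCATCAgccaagttag
MARS1: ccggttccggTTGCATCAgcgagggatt
The stretches lie, on the plus strand, at chr15:40953252-40953279 for CHAC1, chr5:33440957-33440984 for TARS1 and chr12:57488054-57488081 for MARS1. On the minus strand they lie at chr9:92293693-92293720 for IARS1, chr11:3057408-3057435 for CARS1, chr18:57621805-57621832 for NARS1 and chr16:70289676-70289703 for AARS1. All 6 synthetases with the site were lower at an adjusted p under 0.05, from -1.79 in IARS1 to -0.42 in MARS1. Ribosome biogenesis and MYC targets were lower by an adjusted p alone in 22 of 26 cases (31.8% over all genes), with a median of -0.50. ODC1 of polyamine synthesis was the 1 DEG. The median of these targets against Du145-P was 0.74 in Du145-DtxR and 0.24 in Du145-CbzR.

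Of 26 tested NF-kB subunits and targets 8 were DEGs lower in Du145-CbzR (background 8.71%) and 1 higher, with a median of -0.32, and 5 did not pass the adjusted p. Against Du145-P their median was 0.53 in Du145-DtxR and -0.14 in Du145-CbzR. NF-kB dimers enter the nucleus after their inhibitor is degraded and bind kB sites, here searched as GGG, any 2 bases and TTTCC on both strands. Such a site stood in 523 of 27305 promoters (1.92%), in 7 of 24 matched to the NF-kB list and in 8 of 22 matched to the chemokine list. CXCL1, CXCL2, CXCL3, CXCL5 and CXCL6 of chromosome 4 share it, while the promoter of CXCL8 holds no match of these letters in this window. Stretches of 4 of these are shown, with the site in capitals, beside those of IL6, IL32, TNFAIP3 (which has it in 2 places) and NFKBIA.
CXCL1: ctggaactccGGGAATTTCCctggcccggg
CXCL2: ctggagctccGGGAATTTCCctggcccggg
CXCL3: ctggagctccGGGAATTTCCctggcccggc
CXCL6: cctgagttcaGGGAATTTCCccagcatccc
IL6: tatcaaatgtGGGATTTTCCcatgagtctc
IL32: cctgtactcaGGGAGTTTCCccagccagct
TNFAIP3: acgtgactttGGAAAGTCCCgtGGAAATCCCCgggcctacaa
NFKBIA: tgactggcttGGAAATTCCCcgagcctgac
On the plus strand they lie at chr4:73869304-73869333 for CXCL1, chr4:73836578-73836607 for CXCL6, chr7:22727117-22727146 for IL6, chr16:3065294-3065323 for IL32 and chr6:137867182-137867223 for TNFAIP3, and on the minus strand at chr4:74099254-74099283 for CXCL2, chr4:74038749-74038778 for CXCL3 and chr14:35404811-35404840 for NFKBIA.

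Of 20 tested chemokines and cytokines, 10 were DEGs lower and 2 higher, with a median of -1.10. Against Du145-P their median was 0.76 in Du145-DtxR and 0.06 in Du145-CbzR. CXCL8, the neutrophil chemokine interleukin 8, had 5.58 and 5.36 CPM in Du145-CbzR, 110 and 90.8 in Du145-DtxR, with 10.1 and 9.26 in Du145-P (log2 fold change -4.20, SE 0.11, adjusted p = 3.47e-11). CSF1, which sustains macrophages, had 16.2 and 15.3 CPM against 103 and 96.0, with 44.5 and 45.5 in Du145-P. IL32 had 9.51 and 10.9 CPM against 58.7 and 56.6, with 8.80 and 10.8 in Du145-P. IL6 stood at 2.61 and 3.40 CPM in Du145-DtxR and had a single count in Du145-CbzR. CXCL1, CXCL2 and CXCL6, with the shared site, had log2 fold changes of -2.19, -1.60 and -3.23, and CXCL3 -0.77, from few counts, and their near-identical sequences leave the split of reads between CXCL1, CXCL2 and CXCL3 uncertain. CXCL16, a membrane-bound chemokine, went against the list, with 35.6 and 38.2 CPM against 6.40 and 6.43, and 29.9 and 32.6 in Du145-P. The other chemokine that was higher, CCL2, was at 0.39 and 0.617 CPM against 0.11 and 0.185, and its call was lost with DESeq2 (adjusted p = 0.142) and without Du145-CbzR replicate 2, Du145-DtxR replicate 1 or Du145-DtxR replicate 2 (adjusted p = 0.173, 0.125 and 0.0514). Of the 7 NF-kB genes with the site 3 were DEGs lower and 5 lower by an adjusted p alone, from -1.97 to 0.14, and of the 7 tested chemokines and cytokines with it 5 were DEGs lower and 6 lower by an adjusted p alone. The adhesion receptor ICAM1, bound by leukocytes, had 10.3 and 11.5 CPM against 414 and 394, with 39.4 and 44.4 in Du145-P (log2 fold change -5.21, SE 0.08, adjusted p = 6.41e-13). The feedback inhibitors TNFAIP3 and NFKBIA and the apoptosis inhibitor BIRC3 differed by -1.97, -1.24 and -1.37. The subunit gene NFKB1, whose promoter holds the site, had 52.8 and 55.4 CPM against 46.9 and 51.2 and did not pass.

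Interferon-stimulated genes were mixed, with 2 DEGs higher and 5 lower of 25 (12.2% and 8.71% over all genes). The transcription factor IRF7 had 0.779 and 1.07 CPM in Du145-CbzR against 8.23 and 6.50 in Du145-DtxR, with 8.77 and 7.73 in Du145-P, and SAMD9, on chromosome 7 beyond ABCB1, had 0 and 0 against 1.40 and 1.96. IRF9, a subunit of the interferon-activated ISGF3 factor, was higher (16.9 and 18.3 CPM against 7.17 and 7.13). It lies in the block of chromosome 14 described above. In antigen presentation, 5 of 19 were DEGs lower and 1 higher, against 8.71% and 12.2% over all genes. ERAP2, which trims peptides for MHC class I, had 0.779 and 0.877 CPM against 31.3 and 34.4, with 17.3 and 16.2 in Du145-P (log2 fold change -5.30, SE 0.12, adjusted p = 1.56e-11). The immunoproteasome subunits PSMB8 and PSMB9 and the peptide transporter TAP2 had log2 fold changes of -2.35, -1.16 and -1.20.

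**Figure D4:**
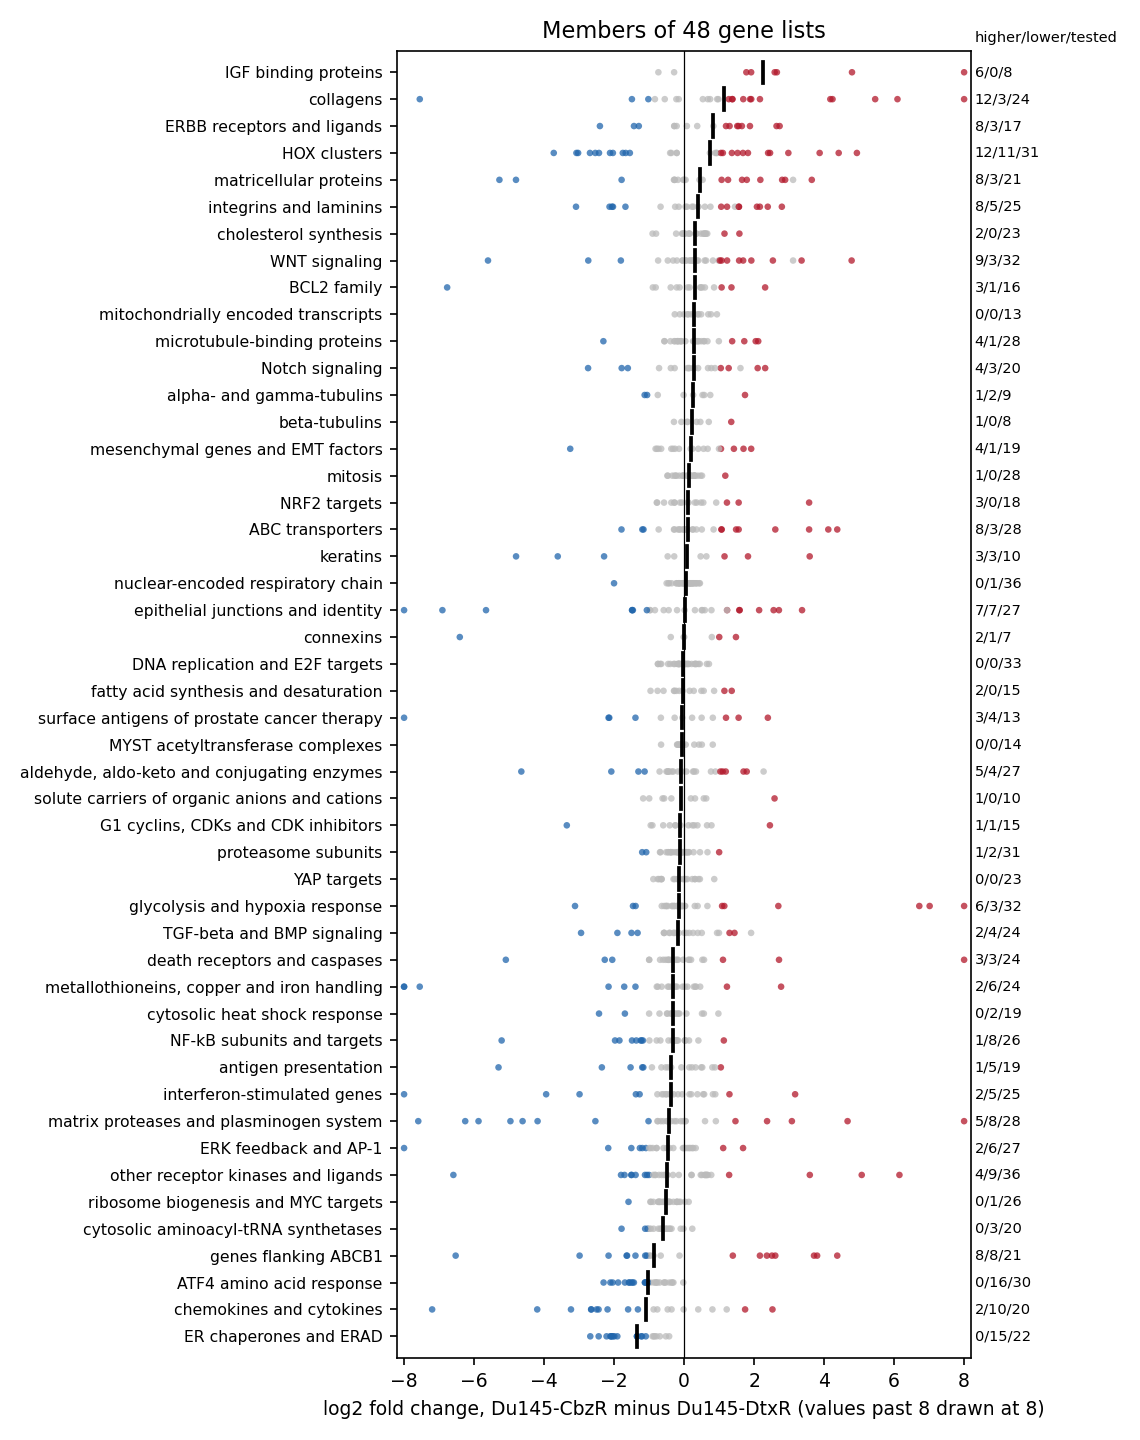
Log2 fold change of Du145-CbzR against Du145-DtxR for each tested member of 48 gene lists, ordered by the list's median (black bar), with values past 8 drawn at 8. Red points are DEGs higher and blue points DEGs lower in Du145-CbzR, and the numbers on the right give DEGs higher, DEGs lower and genes tested; the ER chaperones have the lowest median, -1.34, and the IGF binding proteins the highest, 2.25 (1.85 with genes at 0 in 1 line set to their bound).

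Collagens and basement membrane proteins build the scaffold to which cells attach through integrins. Of 24 tested collagens, 12 were DEGs higher (background 12.2%) and 3 lower, with a median of 1.13, and the list's median against Du145-P was -1.28 in Du145-DtxR and -0.55 in Du145-CbzR. COL3A1, of the fibrillar collagen III, had 18.7 and 17.2 CPM in Du145-CbzR, 0.221 and 0.296 in Du145-DtxR, with 10.8 and 11.1 in Du145-P (log2 fold change 6.10, SE 0.18, adjusted p = 8.35e-11). COL4A3 and COL4A4, neighbouring genes for chains of one collagen IV network, had 11.01 and 12.1 CPM against 0.221 and 0.296, and 27.8 and 28.1 against 1.65 and 1.29. COL12A1, a fibril-associated collagen, went against the list, with 51.7 and 52.0 CPM against 142 and 150, and COL1A2, on chromosome 7 beyond ABCB1, had 0 and 0 CPM against 1.07 and 0.517. Of 8 fibroblast markers 4 had enough counts for a test, of which COL1A1, COL3A1 and PDGFRA were DEGs higher and COL1A2 lower, with a median of 1.90. The 8 summed to 27.1 and 26.7 CPM in Du145-CbzR against 3.31 and 3.73 in Du145-DtxR, mostly from COL3A1 and COL1A1, and their part in the result was not tested. DCN, LUM and THY1 were at or near 0 in both lines. Among matricellular and basement membrane proteins 8 of 21 were DEGs higher and 3 lower. Nidogen 1 (NID1), which links laminin to collagen IV, had 72.2 and 75.2 CPM against 6.40 and 5.36, with 89.8 and 86.2 in Du145-P (log2 fold change 3.65, SE 0.08, adjusted p = 1.33e-11). FBLN1, which binds fibronectin and basement membranes, had 387 and 414 CPM against 58.0 and 56.8, with 220 and 225 in Du145-P. Tenascin C (TNC), a matrix protein of wounds and tumors, was the reverse, with 4.81 and 4.68 CPM against 130 and 135, and 16.6 and 16.1 in Du145-P.

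Integrin and laminin genes differed in both directions, with 8 of 25 DEGs higher and 5 lower (12.2% and 8.71% over all genes). Lower in Du145-CbzR were ITGA2, the collagen-binding alpha 2 chain (29.3 and 29.6 CPM against 250.9 and 250.5, with 56.8 and 55.5 in Du145-P), and ITGA6 and ITGB4, the 2 chains of the laminin receptor of hemidesmosomes, with log2 fold changes of -1.68 and -2.03. Higher were the fibronectin receptor chain ITGA5 (146 and 151 CPM against 52.5 and 47.6) and the laminin chains LAMA1 and LAMA3, with log2 fold changes of 1.57, 1.56 and 2.17. Matrix proteases divided, with 5 of 28 DEGs higher and 8 lower, against 12.2% and 8.71% over all genes. The interstitial collagenase MMP1 had 38.4 and 40.7 CPM against 1.43 and 1.66, with 0.812 and 0.531 in Du145-P (log2 fold change 4.67, SE 0.12, adjusted p = 3.37e-11). The inhibitor TIMP2 had 574 and 624 CPM against 217 and 216, with 590 and 605 in Du145-P. MMP14, the membrane-anchored collagenase that together with TIMP2 activates MMP2, had 1.20 and 1.36 CPM against 43.7 and 36.5, with 18.4 and 20.01 in Du145-P (log2 fold change -4.96, SE 0.14). It went against the block of chromosome 14 in which its gene lies. The sheddase ADAM12 and the aggrecanase-like ADAMTS12 were lower as well, by -5.87 and -6.25, and the collagen cross-linker LOX had 4.68 and 5.20 CPM against 51.0 and 43.2.

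Epithelial genes divided evenly, with 7 of 27 DEGs higher and 7 lower (12.2% and 8.71% over all genes) and a median of 0.01. The tight junction gene CLDN1 was lower (74.9 and 74.0 CPM against 204 and 206, with 48.2 and 48.9 in Du145-P). The desmosomal cadherin DSC3 had 58.6 and 60.3 CPM against 5.62 and 5.87, with 10.9 in both Du145-P libraries (log2 fold change 3.37, SE 0.08, adjusted p = 1.33e-11). Junction plakoglobin (JUP) and CLDN3 were higher too, by 1.58 and 2.14, although JUP remained far below the 285 and 304 CPM of Du145-P. E-cadherin (CDH1) was low in both lines, with 0.747 and 0.682 CPM against 1.65 and 1.15, and 38.9 and 34.8 in Du145-P. KRT19, a keratin of simple epithelia, had 6.36 and 6.37 CPM against 182 and 173, with 32.4 and 34.0 in Du145-P (log2 fold change -4.80, SE 0.07). The hair keratin KRT81 and the keratin KRT80, both in the keratin cluster of chromosome 12, were higher by 3.59 and 1.16, and reads of KRT81 may be shared with its near-identical neighbour KRT86. KRTAP2-3, a keratin-associated protein, had 6.27 and 6.82 CPM against 75.9 and 83.9, with 0.227 and 0.232 in Du145-P. The gap junction protein connexin 43 (GJA1) had 0.422 CPM in both Du145-CbzR libraries against 35.5 and 36.9, with 0.715 and 0.464 in Du145-P. Among mesenchymal genes, vimentin (VIM) was lower by 0.65 and the actin-binding TAGLN higher by 1.70, with 4 DEGs higher and 1 lower of 19.

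Growth factor pathways held differences in both directions as well. Receptors of the ERBB family take up EGF-like ligands and signal through ERK and AKT. Of 17 members, 8 were DEGs higher and 3 lower (12.2% and 8.71% over all genes), with a median of 0.84. Amphiregulin (AREG) had 39.8 and 38.4 CPM in Du145-CbzR, 6.06 and 6.47 in Du145-DtxR, with 6.24 and 6.57 in Du145-P (log2 fold change 2.64, SE 0.08, adjusted p = 1.27e-10). The neighbouring gene of epiregulin (EREG) had 113 and 108 CPM against 31.2 and 28.7, with 10.7 and 8.23 in Du145-P. The receptor ERBB2 had 123 and 132 CPM against 43.9 and 42.7, with 115 and 121 in Du145-P. Against the list, the ligand TGFA (3.64 and 4.22 CPM against 20.5 and 21.1) and the feedback inhibitor ERRFI1 (log2 fold change -1.43) were lower. Downstream of ERK, 6 of 27 AP-1 and feedback genes were DEGs lower and 2 higher. FOSL1, an AP-1 subunit, had 46.0 and 54.5 CPM against 222 and 230, with 22.9 and 27.1 in Du145-P, and JUN and ETV5 differed by -1.19 and -1.09. FOS, in contrast, was higher (10.8 and 10.9 CPM against 3.53 and 3.21).

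IGF binding proteins had the highest median of the 48 lists, 2.25, with 6 of 8 tested members DEGs higher and 0 lower by edgeR and by DESeq2. The list also holds the RNA-binding IGF2BP genes. IGFBP3, the main carrier of IGF in serum, had 120 and 116 CPM in Du145-CbzR, 17.6 and 21.7 in Du145-DtxR, with 14.1 and 13.5 in Du145-P (log2 fold change 2.59, SE 0.08, adjusted p = 1.65e-10). IGFBP4 had 51.6 and 49.6 CPM against 8.86 and 7.24, but 130 and 125 in Du145-P. IGF2BP1, a fetal mRNA-binding protein, had 13.4 and 13.6 CPM against 1 count over both Du145-DtxR libraries, with 1.85 and 1.53 in Du145-P. IGFBP5 was called on 7 counts in Du145-CbzR against 0, a call that was lost without Du145-CbzR replicate 1 (adjusted p = 0.0756). The DEGs IGFBP2 and IGF2BP3 had log2 fold changes of 1.78 and 1.92.

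Of 32 tested WNT components 9 were DEGs higher and 3 lower, and of 20 Notch components 4 and 3, against 12.2% and 8.71% over all genes. SFRP1, a secreted inhibitor that binds WNT ligands, had 51.1 and 51.8 CPM in Du145-CbzR, 1.73 and 2.00 in Du145-DtxR, with 30.3 and 32.2 in Du145-P (log2 fold change 4.79, SE 0.10, adjusted p = 7.29e-12). The beta-catenin partner TCF7 and the feedback inhibitor NKD1 were higher by 2.54 and 3.36, and the partner LEF1 was lower (0.0974 and 0.0975 CPM against 5.37 and 4.51). NOTCH3 had 81.4 and 88.0 CPM against 19.1 and 14.9, with 88.1 and 91.1 in Du145-P, while the ligand JAG1 was lower by 2.74 on the log2 scale and JAG2 higher by 1.27. In other receptor kinases and ligands, 9 of 36 were DEGs lower and 4 higher. The ephrin EFNB2 had 0.0974 and 0.0325 CPM against 6.25 and 7.09, and IGF2R, the mannose 6-phosphate receptor in the low block of chromosome 6, 147 and 150 against 477 and 492.

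HOX genes, homeodomain factors that give cells their position along the body axis, differed by cluster. Of 31 tested, 12 were DEGs higher and 11 lower. In HOXC, on chromosome 12, 7 of 8 were DEGs higher in Du145-CbzR and 0 lower, with a median of 2.43, and in HOXA, on chromosome 7, 5 of 11 were higher and 1 lower, with a median of 0.93. In HOXB, on chromosome 17, 7 of 8 were DEGs lower, with a median of -2.56, and in HOXD, on chromosome 2, 3 of 4. HOXC10 had 23.02 and 22.98 CPM in Du145-CbzR, 1.65 and 1.48 in Du145-DtxR, with 19.4 and 18.6 in Du145-P (log2 fold change 3.87, SE 0.11, adjusted p = 5.67e-11). HOXB9 had 3.99 and 4.65 CPM against 57.3 and 57.01, with 14.6 and 15.99 in Du145-P (log2 fold change -3.72, SE 0.09, adjusted p = 1.97e-11), and HOXB6 7.31 and 7.67 against 62.7 and 59.4. Summed over its genes, HOXB took 47.0 and 44.2 CPM in Du145-CbzR, 197 and 192 in Du145-DtxR, with 60.9 and 65.1 in Du145-P. HOXC took 67.2 and 67.04, 20.7 and 19.9, and 50.7 and 54.1. In both clusters Du145-DtxR was thus the line farther from Du145-P. The genes of a cluster are neighbours, and the window that holds HOXC, chromosome 12 from 50 to 60 Mb, had a median of 0.64.

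**Figure D5:**
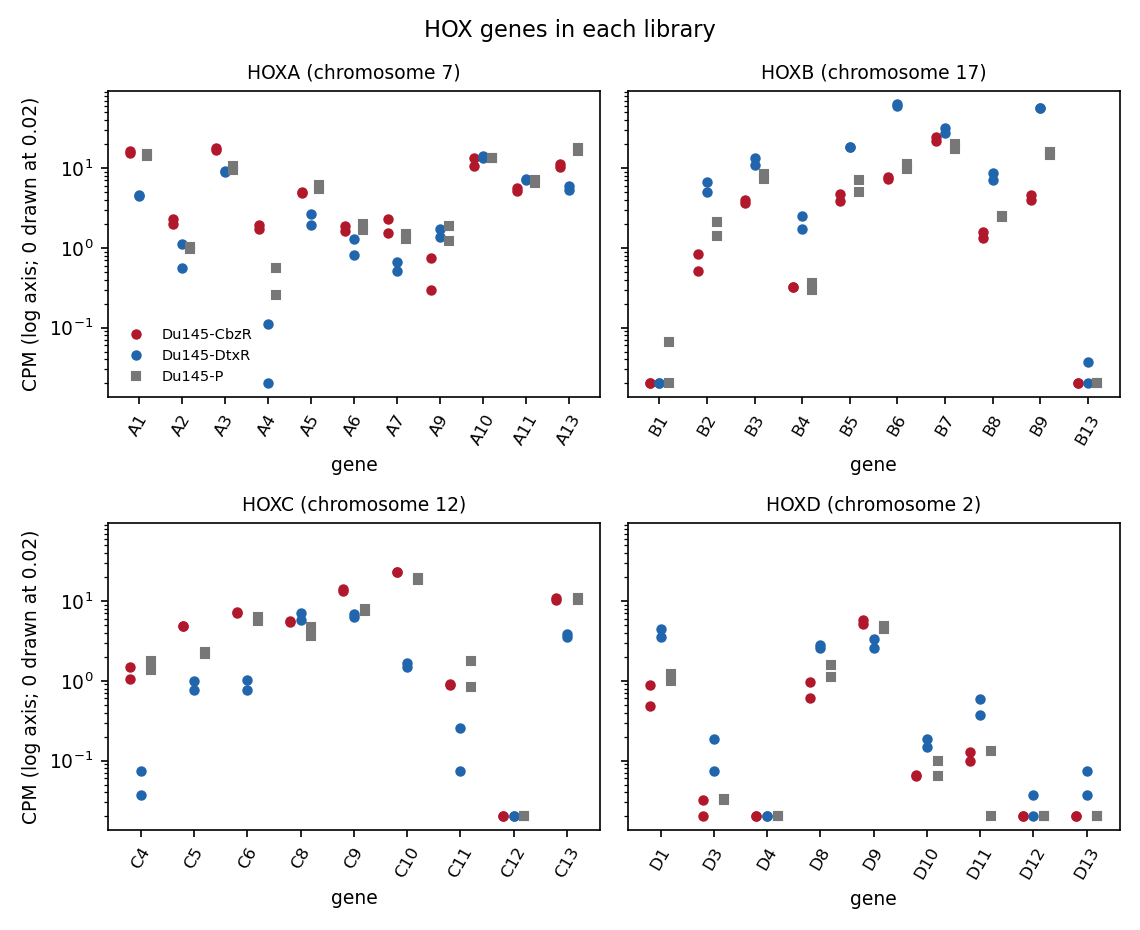
CPM of each HOX gene in each library of Du145-CbzR (red), Du145-DtxR (blue) and Du145-P (grey), by cluster, on log axes with 0 drawn at 0.02. In HOXB the Du145-DtxR libraries lie above those of Du145-CbzR for every gene tested, and in HOXC below them for all tested genes but HOXC8.

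Tubulins are the target of taxanes. Their counts stand beside 12.2% DEGs higher and 8.71% lower over all genes. Of 8 tested beta-tubulins 1 was a DEG, TUBB8, with 1.59 and 1.23 CPM against 0.588 and 0.517, a low level at which reads of its near-identical copies may be shared. TUBB3, the isotype most often linked to taxane resistance, had 121 and 127 CPM against 98.4 and 95.2, with 64.3 and 64.1 in Du145-P (log2 fold change 0.36, SE 0.05, adjusted p = 4.60e-05). TUBB2B and TUBB4A were higher by 0.70 and 0.47 and TUBB4B was lower by 0.29, and TUBB, TUBB2A and TUBB6 lay within 0.10 of 0 and did not pass. Of 9 tested alpha-, gamma-, delta- and epsilon-tubulins 1 was a DEG higher and 2 were lower. TUBA1A was higher, with 133 and 156 CPM against 41.2 and 45.4, and 90.2 and 91.3 in Du145-P. TUBA8 and TUBE1 were DEGs lower (log2 fold changes -1.13 and -1.06, TUBE1 being at -0.95 and no DEG without Du145-DtxR replicate 1). TUBA1B, TUBA1C, TUBD1 and TUBG2 were higher and TUBA4A lower by an adjusted p alone, from -0.75 to 0.75, and TUBG1 lay at -0.01. Of 28 microtubule-binding proteins, 4 were DEGs higher and 1 lower, against 12.2% and 8.71% over all genes. DCLK1, a microtubule-bound kinase, had 9.58 and 9.33 CPM against 1.87 and 2.48, with 2.37 and 2.55 in Du145-P, and MAP1B, which stabilizes microtubules, was higher by 0.99. Mitotic genes, the 28 of the list, held 1 DEG, the separase ESPL1, which was higher by 1.18. Of these 28 genes 20 passed the adjusted p alone, 14 higher and 6 lower. The 33 replication genes under E2F held 0 DEGs, and 20 of them passed the adjusted p alone, 9 higher and 11 lower. Over all genes 31.2% were higher and 31.8% lower by an adjusted p alone.

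The counts of drug-handling genes given next stand beside 12.2% DEGs higher and 8.71% lower over all genes. Of 27 tested aldehyde, aldo-keto and conjugating enzymes, 5 were DEGs higher and 4 lower, among them CYP1B1, which oxidizes estrogens (81.6 and 83.8 CPM against 36.1 and 36.4, with 110 and 104 in Du145-P), and GSTM3, a glutathione transferase, lower by 2.08 on the log2 scale. Of 18 NRF2 targets 3 were DEGs higher (12.2% over all genes), the pumps ABCC2 and ABCC3 and FTH1. FTH1 had 5107 and 5355 CPM against 2149 and 2328, with 3746 and 3917 in Du145-P. Of 24 tested metallothioneins and genes of copper and iron handling 2 were DEGs higher and 6 lower (12.2% and 8.71% over all genes). The copper exporter ATP7A, which also moves platinum drugs, had 20.8 and 20.3 CPM against 2.39 and 3.62, with 18.2 and 15.4 in Du145-P (log2 fold change 2.77, SE 0.15, adjusted p = 1.25e-08). The copper importer SLC31A1 was lower (40.1 and 40.5 CPM against 135 and 129, with 81.5 and 75.8 in Du145-P). SLC22A18, a solute carrier, was higher by 2.58, and it was the single DEG of 10 tested SLCO and SLC22 carriers.

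Glycolysis and hypoxia genes held wide single differences around a median of -0.14, with 6 DEGs higher and 3 lower of 32 (12.2% and 8.71% over all genes). The glucose transporter SLC2A3 (GLUT3) had 93.9 and 93.1 CPM in Du145-CbzR, 0.919 and 0.517 in Du145-DtxR, with 61.6 and 57.7 in Du145-P (log2 fold change 7.02, SE 0.13, adjusted p = 2.56e-12). NDRG1, a stress-responsive gene, had 71.8 and 72.8 CPM against 0.809 and 0.554, with 142 and 147 in Du145-P (log2 fold change 6.72, SE 0.11). The lactate exporter SLC16A3 (MCT4) was lower, with 16.8 and 15.9 CPM against 150 and 134, and 80.8 and 77.8 in Du145-P, as were HK2, which traps glucose as its phosphate, and VEGFA, by -1.46 and -1.39. In lipid synthesis FASN had 943 and 1004 CPM against 472 and 404, with 441 and 453 in Du145-P. Of 23 cholesterol synthesis genes 13 were higher and 3 lower by an adjusted p alone (31.2% and 31.8% over all genes), MVK and TM7SF2 being DEGs. Mitochondrially encoded transcripts had a median of 0.29, with 8 of 13 higher by an adjusted p alone (31.2% over all genes). Of 36 nuclear genes of the respiratory chain 1 was a DEG, ATP5PO on chromosome 21, with 30.2 and 32.8 CPM against 121 and 131.

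Of 24 tested death receptors and caspases 3 were DEGs higher, DAPK1 among them, and 3 lower, near the shares over all genes (12.2% and 8.71%). The death receptor FAS had 8.47 and 8.58 CPM in Du145-CbzR against 39.1 and 43.0 in Du145-DtxR, with 6.24 and 5.81 in Du145-P (log2 fold change -2.27, SE 0.08, adjusted p = 4.50e-10), and CASP4, a caspase that senses bacterial lipid, 0.325 and 0.195 CPM against 8.53 and 9.50. In the BCL2 family, which decides whether mitochondria release cytochrome c, the inhibitor BCL2L1 (BCL-XL) had 127 and 135 CPM against 253 and 233, with 90.2 and 98.5 in Du145-P, lower by 0.89 on the log2 scale. The BH3-only killer BMF had 13.4 and 14.7 CPM against 2.61 and 3.03, with 24.9 and 27.7 in Du145-P (log2 fold change 2.32, SE 0.12). MCL1 differed by -0.38, and of the 16 tested members 3 were DEGs higher and 1, BCL2A1, lower.

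BRPF1, the bromodomain scaffold of MYST histone acetyltransferases that was silenced in the siRNA experiment, did not separate the lines. It had 22.2 and 21.5 CPM in Du145-CbzR, 22.8 and 22.5 in Du145-DtxR, with 24.0 and 26.7 in Du145-P (log2 fold change -0.05, SE 0.08, adjusted p = 0.586). Its paralogs BRD1 and BRPF3 had log2 fold changes of 0.82 (SE 0.07, adjusted p = 4.60e-07) and -0.16 (SE 0.06, adjusted p = 0.0257). Of the 14 members of these complexes 0 were DEGs by edgeR or DESeq2. By an adjusted p alone 4 were higher and 4 lower, against 31.2% and 31.8% over all genes. JADE1 with -0.66 and KAT7 with 0.42 were among them.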

How the data were processed

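RNA-seq of 12 libraries came in 2 tables, quantified apart. Per the submitters' processing notes and the study's methods, the authors aligned reads with STAR, estimated counts with Salmon on GRCh38 and used DESeq2. The deposited values, in files named for TPM, are estimated counts per gene. They were rounded, and 44 rows of the pseudoautosomal Y copies were added to their X partners, giving 60616 genes. Symbols and coordinates come from GENCODE (60419 matched). No strand setting is given in the sources used here.

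Genes were filtered with filterByExpr, scaled by TMM and tested with edgeR 4.0.16 (R 4.3.3), the 6 libraries of the 3 lines sharing 1 quasi-likelihood fit with 3 residual degrees of freedom. DEGs had an adjusted p under 0.05 and a log2 fold change above 1 or below -1. With 2 against 2 libraries no exact permutation test can reach an unadjusted p of 0.05. On simulated counts for this comparison over the same 18218 genes, the adjusted p recovered 71 of 100 genes changed 2-fold and 94 of 100 changed 4-fold. As DEGs 36 and 94 of them were recovered, a 2-fold change lying at the fold limit itself. Of the unchanged genes 7 passed the adjusted p and 2 were DEGs. The changed genes were drawn above a minimum mean count, so recovery at few counts was not measured.

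Members and lists were chosen with earlier results of these data known. Named were the 15 largest fold changes (at least 5 CPM, libraries not overlapping) and the 10 largest CPM differences among DEGs in each direction, up to 5 members per list by adjusted p and members against their list, all tubulins and ABC transporters, and BRPF1, BRD1 and BRPF3. Y-linked genes and XIST were left out, and a few genes are not reported here. Alternatives were other filters, DESeq2 1.42.0 and its size factors, a replicate block, the 4 libraries alone, each library left out, a fold limit and a window size. Promoters are from RefSeq (GRCh38.p14).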

Additional observations from a re-analysis of the deposited data

How the results depend on the processing

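The counts of DEGs, 2219 higher and 1587 lower, stayed within 1.5 times of these under all alternatives but a log2 fold limit of 2, which left 928 and 555. With genes under a mean of 1 CPM left out they were 1554 and 1098, with DESeq2 1899 and 1390, and between 2033 and 2170 higher and 1509 and 1576 lower with each of the 4 libraries left out in turn. The replicate numbers of the labels did not pair the libraries (correlations of same-numbered deviations 0.03, 0.08 and -0.02), and a replicate block gave 2174 and 1556. Of 344 named or listed genes 325 kept their call wherever they were tested, and 0 changed sign. The 19 others lay near a log2 fold change of 1 or had few counts, such as PDGFRA, whose adjusted p was 0.083 with DESeq2. Windows of 5 Mb gave medians from -1.71 to 1.02, against -1.65 to 2.17 with 10 Mb. Of 96 counts of DEGs in the lists, 6 moved by more than 1.5 times, or to or from 0, with genes under a mean of 1 CPM left out. With DESeq2, with a replicate block and with the 4 libraries alone 1 moved in each case. Some list counts also moved when a library was left out. Where a line had 0 counts of a gene, depth limits the comparison to a bound.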
